A study of Homo sapiens with 4 samples.

Results

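The kinetochore and spindle checkpoint genes considered here were 46 of the 60671 genes in a table of read counts from SK-N-BE(2), an established human neuroblastoma cell line. They were taken by symbol from the protein complexes that make up the structure and its checkpoint: 15 genes of the inner kinetochore, 15 of the outer kinetochore, 10 of the spindle checkpoint, and 6 of the chromosomal passenger complex and the shugoshins. RNA sequencing compared cells that carried a control hairpin (shNC, 2 libraries) with cells that carried a hairpin against METTL14 (shMETTL14, 2 libraries). METTL14 is the RNA-binding partner of METTL3 in the enzyme that places N6-methyladenosine on messenger RNA. According to the methods of the study, the pLKO.1 lentiviral vector served for knockdown and stable lines expressing hairpins were selected with puromycin. The labels did not say which of the hairpins designed against METTL14 these libraries carried, nor whether the replicates came from separate cultures, so p-values measure only the spread between these libraries, which may be technical. A single cell line was used.

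The kinetochore is the protein assembly through which a chromosome holds on to spindle microtubules. It is founded on nucleosomes that contain the histone H3 variant CENP-A, which are bound by the inner kinetochore proteins, and these in turn hold the outer KNL1, MIS12 and NDC80 complexes that reach the microtubule. Kinetochores that are not yet attached set off the spindle checkpoint, in which MAD2 and the BUB proteins hold back the activator CDC20 of the anaphase-promoting complex, while the chromosomal passenger complex with its kinase Aurora B releases wrong attachments. Many of these genes are transcribed mainly in G2 and mitosis. In RNA from whole cultures, a smaller share of cells in those phases and less RNA per cell cannot be told apart.

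Many late cell cycle genes carry a short promoter element named the cell cycle genes homology region, or CHR, close to the transcription start. RefSeq promoter sequences (GRCh38.p14, from 250 bases before to 50 bases after each start) were available for 38 of the 46 genes. CENPH, CENPL, CENPM, KNL1, TTK, BUB3, BIRC5 and KNTC1 had no entry. The letters TTTGAA or TTCGAA, read on both strands, began within 50 bases of a start in 18 of the 38 genes (47.4%), beside 6.24% of 27305 genes with a promoter in the table. The following 30-base stretches, printed 5′ to 3′ on the strand of the gene with the element in capitals, are shown to set side by side genes of this kind that moved in opposite directions: first 3 that were lower after METTL14 knockdown, then 3 that did not pass the test, then 3 that were higher. TTCAAA is TTTGAA read from the other strand, and NDC80 holds 2 elements side by side.
CENPF, chr1:214603215-214603244, plus strand: ccggtggcggctgcgggcagTTTGAAttag
NDC80, chr18:2571542-2571571, plus strand: ccggcggagaatTTCAAATTCGAAcggctt
BUB1, chr2:110678045-110678074, minus strand: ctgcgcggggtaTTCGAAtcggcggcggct
SKA3, chr13:21176538-21176567, minus strand: ccggcgccgagaTTCAAActagtggcggga
SGO1, chr3:20186192-20186221, minus strand: gaggcggaaaatTTCGAAtgtggcggcggt
INCENP, chr11:62123989-62124018, plus strand: tgagccttcagtTTTGAAaatcatagtttt
CENPW, chr6:126340120-126340149, plus strand: gttggcggcggaTTCGAAcgttcggactga
MAD2L1, chr4:120066807-120066836, minus strand: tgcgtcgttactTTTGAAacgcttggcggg
SKA1, chr18:50375066-50375095, plus strand: ggcgcggcgggcggTTTGAAttttgcttac
The stretches were picked from each of the 3 classes of response among genes with these letters near the start. That they share the letters is therefore not a result. Of all 18 genes with the element within 50 bases of a start, 5 were called higher and 5 lower, with a median log2 fold change of -0.03. Of the 20 without it, 1 was called higher and 6 lower, with a median of -0.06. Of all genes tested, 27.4% were called higher and 25.5% lower. A CCAAT box was present in at least 1 promoter window of 26 of the 38 genes (68.4%, beside 39.7% of all genes). An E2F-type site, TTCCCGC or TTGGCGC on either strand, was present in 10 of the 38 genes (26.3%, beside 11.0%). A match describes letters in a window and is not a site of binding that was measured.

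Library depth was even, with 18925786 to 19886214 counts in genes, and 16309 genes were expressed highly enough to be tested. METTL14 itself (ENSG00000145388, chromosome 4 from 118685368 to 118715433) had 753 and 754 counts in shNC and 303 and 321 in shMETTL14, a fall to 41.7% of the control level (log2 fold change -1.26, SE 0.0806, edgeR adjusted p = 1.5e-11). All 7 markers of noradrenergic neuroblastoma cells had more than 10 counts, and their summed level was 2180 CPM in each shNC library and 1820 to 1830 CPM in shMETTL14, with 6 of the 7 called lower and ISL1 called higher. Of the defining genes of other cell types, the leukocyte genes CD68, CD3E and LYZ, the endothelial genes PECAM1, CDH5 and KDR, and the Schwann cell gene SOX10 had at most 10 counts in every library. The 5 fibroblast genes were all detected, with a summed level of 316 to 318 CPM in shNC and 302 to 319 CPM in shMETTL14, of which LUM, named after its values were seen, made up 238 to 254 CPM. Of these 5 genes, 2 were called lower, 1 was called higher and 2 did not pass the test. The part of these marker changes in the results below was not tested.

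All 46 kinetochore and checkpoint genes passed the filter on low counts. After METTL14 knockdown, 15 were lower, 7 were higher and 24 did not pass the test (edgeR quasi-likelihood test, Benjamini-Hochberg adjusted p under 0.05 over all genes tested). The share called was 47.8%, beside 52.8% of all genes tested, so the number of calls was near the background. Of all genes tested, 27.4% were called higher and 25.5% lower. The median log2 fold change of the 46 was -0.06, beside -0.0 for all genes tested, and single genes ranged from -0.73 for CENPF to 0.58 for CENPW. With upper quartile scaling in place of TMM, 23 of the 46 were lower and 3 were higher, beside 30.6% and 21.8% of all genes tested (52.5% in either direction), so that the share of the calls that were higher went from 31.8% to 11.5% (51.8% to 41.6% over all genes). By library size alone, 20 were lower and 4 were higher (16.7% of the calls, beside 44.9% over all genes). In DESeq2, which called 33.9% of the genes it tested, 10 were lower and 2 were higher. The share of the DESeq2 calls that were higher was thus 16.7%, beside 56.6% over all genes. The same 12 genes kept their call in each of the 12 alternative fits: CENPF, CENPE, SGO2, ZWILCH, CENPP, KNL1, TTK, NDC80, CENPH and KNTC1, which were lower, and CENPW and MAD2L1, which were higher. The other called genes, CENPC, CENPI, CENPM, CENPO, NUF2, ZWINT, MIS12, SKA1, BUB1 and BUB1B, were not called in DESeq2. A change of at least 1.5-fold was found in 4 genes, CENPF, ZWILCH, SGO2 and CENPE, all lower, beside 19.1% of all genes tested.

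**Figure D1:**
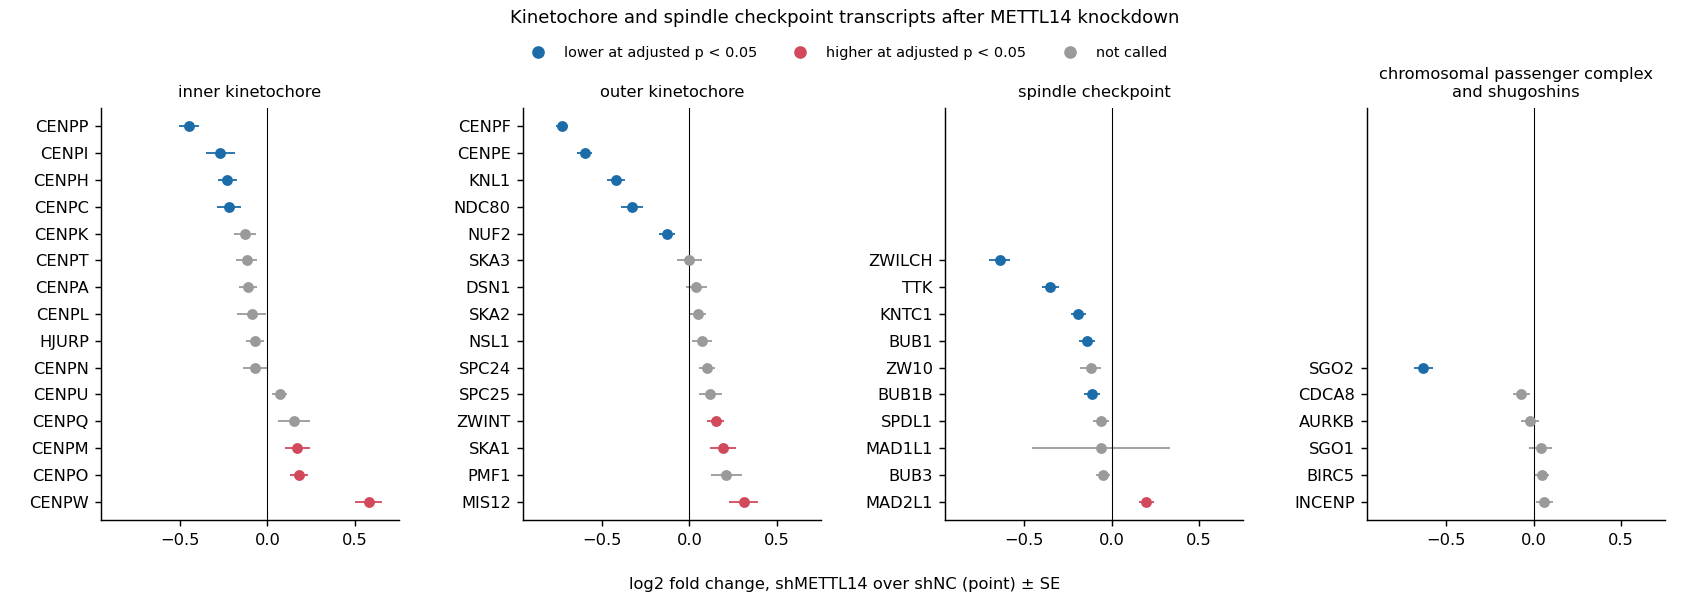
Log2 fold change of each of the 46 genes, shMETTL14 over shNC, with its standard error (horizontal axis), in 1 panel for each group of genes; colour marks genes called lower, called higher or not called at an adjusted p under 0.05. CENPF lies farthest to the left at -0.73 and CENPW farthest to the right at 0.58, and 5 of the 6 genes in the panel of the chromosomal passenger complex and shugoshins lie between -0.07 and 0.06.

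The corona of the outer kinetochore held the largest fall of the 46. CENPF (ENSG00000117724, chromosome 1 from 214603195 to 214664588) encodes a very large coiled-coil protein that coats the kinetochore in early mitosis and binds dynein regulators. It had 18344 and 17627 counts in the shNC libraries and 10931 and 10605 in the shMETTL14 libraries. The groups stood clear of each other, and the level in shMETTL14 was 60.3% of that in shNC (log2 fold change -0.73, SE 0.0346, adjusted p = 1.0e-13). CENPE (ENSG00000138778, chromosome 4 from 103105806 to 103198409), the kinesin that carries chromosomes to the spindle equator, had 5417 and 5482 counts in shNC and 3616 and 3546 in shMETTL14. Its level fell to 66.1% of the control (log2 fold change -0.60, SE 0.0415, adjusted p = 6.3e-11). Both genes were lower in each of the 12 alternative fits, CENPF with log2 fold changes from -0.80 to -0.71 and CENPE from -0.66 to -0.55.

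In the KNL1 complex, both genes passed the test and moved in opposite directions. KNL1 (ENSG00000137812, chromosome 15 from 40594020 to 40664342), the long scaffold that recruits the BUB proteins, had 2276 and 2334 counts in shNC and 1691 and 1730 in shMETTL14, a fall to 74.7% (log2 fold change -0.42, SE 0.0501, adjusted p = 2.8e-07). ZWINT, its binding partner, had 2126 and 1928 counts in shNC and 2314 and 2158 in shMETTL14, and was called higher (0.15, SE 0.0493, adjusted p = 0.0132). The counts of the KNL1 groups were far apart and those of the ZWINT groups nearly touched. Without shMETTL14 library 1 or shNC library 2, ZWINT was no longer called (adjusted p = 0.15 and 0.0854).

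NDC80, the microtubule-binding subunit that names its complex, had 1208 and 1223 counts in shNC and 1021 and 901 in shMETTL14, and fell to 79.5% (log2 fold change -0.33, SE 0.0623, adjusted p = 1.2e-04). NUF2, with which it pairs at the microtubule end of the complex, had 2870 and 2956 counts in shNC and 2684 and 2613 in shMETTL14 (-0.13, SE 0.0461, adjusted p = 0.023). The call of NUF2 was lost without shMETTL14 library 1 or 2 or shNC library 2 (adjusted p = 0.0811, 0.143 and 0.253). SPC24 and SPC25, which form the end of the same complex that faces the chromosome, had fold changes of 0.10 and 0.12 and did not pass the test (adjusted p = 0.0885 and 0.147).

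Of the 4 genes of the MIS12 complex, which joins the inner and the outer kinetochore, MIS12 was called higher. It had 415 and 433 counts in shNC and 522 and 523 in shMETTL14, or 124% of the control level (log2 fold change 0.31, SE 0.0819, adjusted p = 0.00293), although DESeq2 gave an adjusted p of 0.0622. DSN1, NSL1 and PMF1 had log2 fold changes of 0.04, 0.07 and 0.21 and did not pass the test. PMF1 passed it without shMETTL14 library 1 or shNC library 2 (adjusted p = 0.0249 and 0.0243). In the SKA complex, which tracks the ends of microtubules, SKA1 had 552 and 521 counts in shNC and 612 and 605 in shMETTL14 and was called higher (0.19, SE 0.0733, adjusted p = 0.0328). The SKA1 call was lost when any 1 of the 4 libraries was left out (adjusted p from 0.072 to 0.0989), and SKA2 and SKA3 did not pass the test, with log2 fold changes of 0.05 and -0.0. In all, 5 of the 15 outer kinetochore genes were lower and 3 were higher, with a median of 0.05. The share called, 53.3%, was near the 52.8% of all genes tested.

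Of the 15 inner kinetochore genes, 4 were lower and 3 were higher, with a median of -0.09. The share called was 46.7%, beside 52.8% of all genes tested. CENPW (ENSG00000203760, chromosome 6 from 126340174 to 126348875), a small histone-fold protein, had 555 and 612 counts in shNC and 821 and 907 in shMETTL14. Its level was 149% of the control (log2 fold change 0.58, SE 0.0773, adjusted p = 1.6e-06), the largest increase of the 46. CENPT, the protein with which CENPW forms its heterodimer, had 1207 and 1201 counts in shNC and 1140 and 1061 in shMETTL14, with a log2 fold change of -0.12 that did not pass the test (SE 0.0573, adjusted p = 0.082).

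In the CENP-O, P, Q and U group, CENPP and CENPO moved apart as well. CENPP had 1375 and 1295 counts in shNC and 966 and 981 in shMETTL14, a fall to 73.4% (log2 fold change -0.45, SE 0.0564, adjusted p = 7.0e-07). CENPO, its direct partner, had 1614 and 1436 counts in shNC and 1777 and 1664 in shMETTL14 and was called higher (0.18, SE 0.0536, adjusted p = 0.00631). CENPQ and CENPU, which complete the group, did not pass the test (0.15 and 0.07). Without shMETTL14 library 1 or shNC library 2, CENPO was no longer called (adjusted p = 0.0704 and 0.0636). Exons of CENPP and CENPO overlap those of other coding genes on the opposite strand (IPPK and NOL8 for CENPP, ADCY3 and PTRHD1 for CENPO), and since the strand setting of the counting is not given in the sources used here, their counts are uncertain.

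Among the genes that link the centromere to the outer layers, CENPH had 1552 and 1566 counts in shNC and 1343 and 1290 in shMETTL14 (log2 fold change -0.23, SE 0.0531, adjusted p = 7.6e-04). CENPI, of the same complex, had 498 and 499 counts in shNC and 416 and 404 in shMETTL14 (-0.27, SE 0.082, adjusted p = 0.00787). Both were lower, while CENPM, also of that complex, had 605 and 553 counts in shNC and 663 and 635 in shMETTL14 and was called higher (0.17, SE 0.072, adjusted p = 0.0466). CENPC, the scaffold that contacts the CENP-A nucleosome directly, had 876 and 895 counts in shNC and 811 and 705 in shMETTL14 (-0.22, SE 0.0696, adjusted p = 0.0124). CENPH kept its call without any 1 of the 4 libraries, while the calls of CENPI, CENPM and CENPC depended on the fit and on single libraries. With all 4 libraries, DESeq2 did not call CENPI, CENPM or CENPC (adjusted p = 0.134, 0.262 and 0.143). CENPM kept its call in 1 of the 12 alternative fits. Without shNC library 2, CENPI and CENPC were not called (adjusted p = 0.0512 and 0.0881), nor was CENPC without shMETTL14 library 2 (adjusted p = 0.259), and CENPM was not called without any 1 of the 4 libraries (adjusted p from 0.0548 to 0.182). Without shNC library 2, 3 inner kinetochore genes were called in place of 7. CENPA, the histone variant itself, had 1641 and 1601 counts in shNC and 1531 and 1462 in shMETTL14, and its chaperone HJURP had 1878 and 1863 in shNC and 1863 and 1688 in shMETTL14. Neither passed the test (-0.11, adjusted p = 0.0854, and -0.07, adjusted p = 0.295), and nor did CENPK, CENPL or CENPN, which lay between -0.13 and -0.07.

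Of the 10 spindle checkpoint genes, 5 were lower and 1 was higher, with a median of -0.12. The share called was 60.0%, beside 52.8% of all genes tested. ZWILCH (ENSG00000174442, chromosome 15 from 66504959 to 66550128), a subunit of the complex with ROD and ZW10 that brings MAD1 and dynein to kinetochores, had 1310 and 1382 counts in shNC and 865 and 856 in shMETTL14. It fell to 64.3% of the control (log2 fold change -0.64, SE 0.0609, adjusted p = 1.1e-08). Exons of ZWILCH overlap those of RPL4 and LCTL on the other strand. KNTC1, which encodes the ROD subunit, had 3684 and 3654 counts in shNC and 3179 and 3197 in shMETTL14 (-0.19, SE 0.0425, adjusted p = 5.7e-04). ZW10, the third subunit, had 1189 and 1079 counts in shNC and 1054 and 1012 in shMETTL14 and did not pass the test (-0.12, SE 0.0584, adjusted p = 0.0775), and nor did the dynein adaptor SPDL1 (-0.06, adjusted p = 0.278).

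TTK, which encodes the MPS1 kinase at the head of checkpoint signalling, had 1924 and 1932 counts in shNC and 1500 and 1498 in shMETTL14. It fell to 78.2% of the control (log2 fold change -0.35, SE 0.0503, adjusted p = 3.5e-06), with replicates that nearly coincided. MAD2L1, the gene for the MAD2 protein that binds CDC20, moved the other way, with 2306 and 2294 counts in shNC and 2624 and 2632 in shMETTL14, or 115% of the control (0.20, SE 0.0456, adjusted p = 7.5e-04). BUB1, a kinase that marks centromeric chromatin, had 2705 and 2554 counts in shNC and 2392 and 2335 in shMETTL14 (-0.14, SE 0.0448, adjusted p = 0.00967). BUB1B, which encodes BUBR1, had 3204 and 3224 counts in shNC and 3059 and 2850 in shMETTL14 (-0.11, SE 0.0452, adjusted p = 0.0407). The last 2 calls were lost without shMETTL14 library 2 (adjusted p = 0.0926 and 0.411), that of BUB1 also without shMETTL14 library 1 (adjusted p = 0.0572) and that of BUB1B without shNC library 2 (adjusted p = 0.237). BUB3, their adaptor, did not pass the test (-0.05, SE 0.0404, adjusted p = 0.36). MAD1L1, the gene for the MAD1 platform, had 14 to 25 counts in every library, too few to show a change of this size (log2 fold change -0.06, SE 0.395).

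None of the 4 genes of the chromosomal passenger complex passed the test, beside 52.8% of all genes tested that did. AURKB, its kinase, had 1374 and 1342 counts in shNC and 1361 and 1308 in shMETTL14 (log2 fold change -0.02, SE 0.0531, adjusted p = 0.822). INCENP, its scaffold, BIRC5, which encodes survivin, and CDCA8, which encodes borealin, had fold changes of 0.06, 0.05 and -0.07, with standard errors of 0.0487, 0.0405 and 0.0475. Of the shugoshins, which protect cohesin at centromeres, 1 was lower. SGO2 (ENSG00000163535, chromosome 2 from 200510008 to 200583782) had 1767 and 1789 counts in shNC and 1134 and 1148 in shMETTL14, a fall to 64.6% (-0.63, SE 0.0536, adjusted p = 1.7e-09). SGO1 had 801 and 771 counts in shNC and 766 and 842 in shMETTL14, with groups that overlapped (0.04, SE 0.0683, adjusted p = 0.629). SGO2 shares exonic bases with KCTD18 on the other strand.

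**Figure D2:**
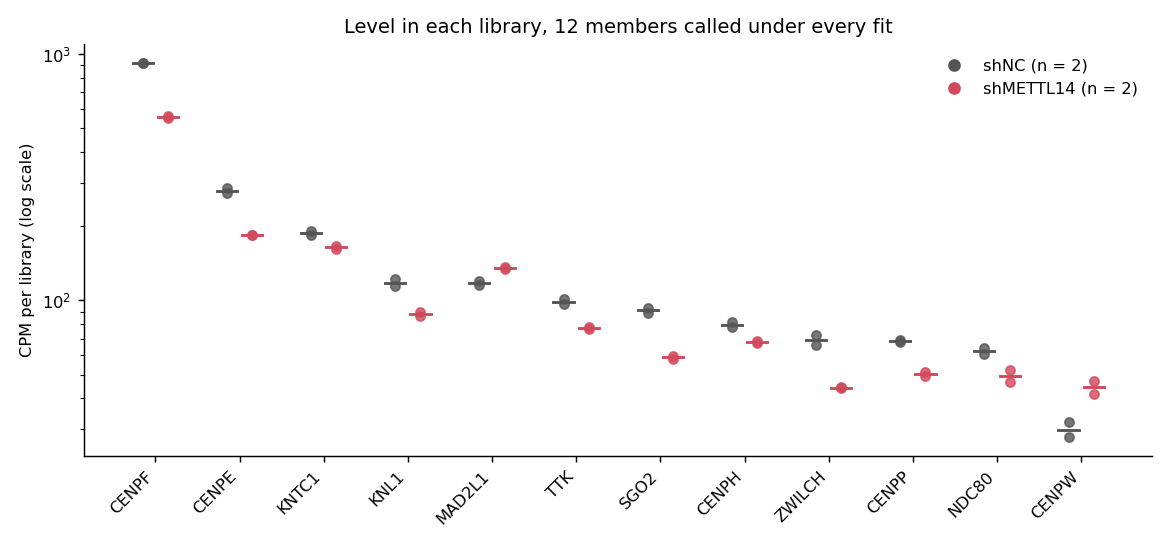
Level of the 12 genes that kept their call in every fit, as CPM after TMM scaling on a log axis, with 1 point for each library (grey for shNC, red for shMETTL14, n = 2 each). CENPF is the most abundant, at 920 and 921 CPM in shNC and 558 and 551 in shMETTL14, and the points of the groups do not overlap for any of the 12.

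In all, 35 of the 46 genes had groups that did not overlap (75.5% of all genes tested did so). Levels can be compared between genes only per length of transcript. On that scale, CPM per kilobase of the longest coding transcript in shNC, SPC24 was highest at 145, followed by CENPF at 89.3, BIRC5 at 76.0, NUF2 at 75.8 and CENPU at 71.8. CENPF came down to 53.8 in shMETTL14, and CENPW went from 56.6 to 84.3. At the low end stood CENPP at 7.79, CENPC at 6.53 and MAD1L1 at 0.351. The neighbours BIRC5 and NUF2 in this order did not differ beyond the spread of their replicates.

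A ratio of 2 genes within a library does not depend on how libraries are scaled. Ratios were taken for 11 pairs of partners from the same complex, which were chosen with the changes above known, so that they show those changes free of scaling and add no test of them. The smallest two-sided p that an exact permutation test can give here is 0.333. CENPW counts per CENPT count were 0.46 and 0.51 in shNC and 0.72 and 0.855 in shMETTL14, a log2 difference of 0.70 beside a widest gap between replicates of 0.247. SGO2 per SGO1 was 2.21 and 2.32 in shNC and 1.48 and 1.36 in shMETTL14 (log2 difference -0.67), and CENPP per CENPO was 0.852 and 0.902 against 0.544 and 0.59 (-0.63). In each of these 3 pairs the libraries of the groups stood apart, with the counts of CENPP and CENPO uncertain as said above. KNL1 per ZWINT was 1.07 and 1.21 in shNC and 0.731 and 0.802 in shMETTL14 (-0.57). ZWILCH per ZW10 went from 1.1 and 1.28 in shNC to 0.821 and 0.846 in shMETTL14 (-0.51). These counts are not corrected for transcript length. In CPM per kilobase, ZWINT was above KNL1 in shNC (55.4 against 12.3) and in shMETTL14 (61.5 against 9.21). ZW10 was above ZWILCH in both groups as well (19.4 against 17.4 and 17.8 against 11.2). NDC80 per SPC24 went from 0.671 and 0.688 in shNC to 0.532 and 0.477 in shMETTL14 (-0.43). The ratios of AURKB to INCENP and of KNTC1 to ZW10 had groups that overlapped, each with a log2 difference of -0.07.

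**Figure D3:**
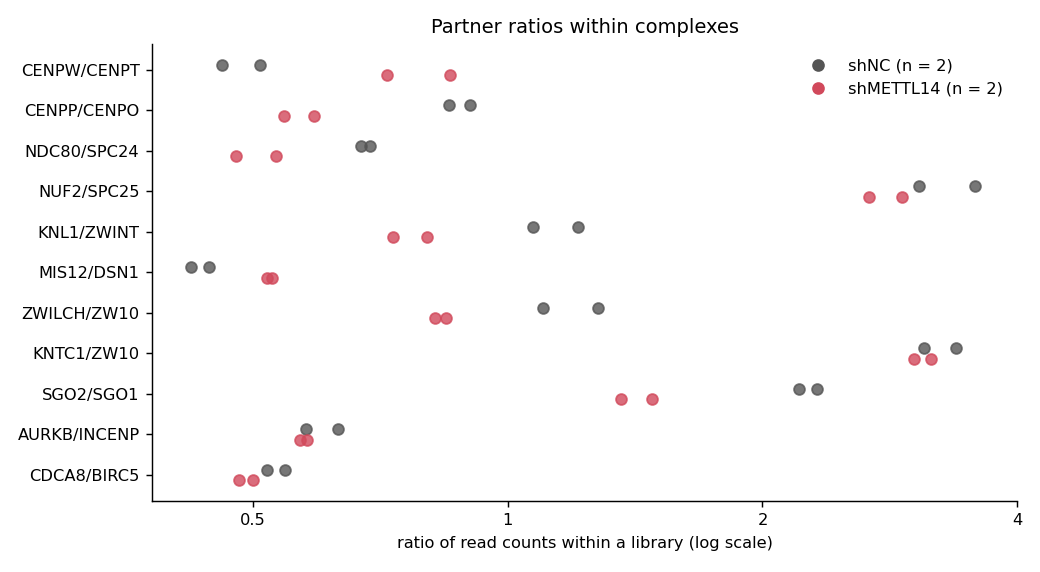
Ratio of the read counts of 2 partner genes within a library, on a log axis, for 11 pairs of the same complex, with 1 point for each library (grey for shNC, red for shMETTL14, n = 2 each). CENPW/CENPT lies to the right in shMETTL14 and SGO2/SGO1, CENPP/CENPO and KNL1/ZWINT lie to the left, while AURKB/INCENP and KNTC1/ZW10 overlap.

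The genes that fell were mostly those with long coding sequences, a property looked at after the fold changes had been seen. The limits of the length classes were not fixed beforehand either. Of the 10 genes with more than 2400 coding bases in their longest coding transcript, 9 were lower, with a median of -0.28. INCENP, at 2754 bases, was not called. CENPC, BUB1 and BUB1B, among the lower genes, were not called in DESeq2. Just under the limit, ZW10 (2337 bases), HJURP (2244) and MAD1L1 (2154) were not called and CENPI (2268) was lower, so the share depends on the limit. Of the 20 genes under 1000 coding bases, 7 were higher and 2, CENPH and CENPP, were lower, with a median of 0.11, so that all 7 increases of the 46 were in this class. The 16 genes in between held 4 decreases and no increase, with a median of -0.07. Coding lengths ran from 309 bases for CENPW to 9342 for CENPF, with 8103 for CENPE, 7026 for KNL1 and 6627 for KNTC1. Among all coding genes tested, the same classes went the same way less steeply: 34.0% of the 2968 longest genes were lower and 25.9% higher (median -0.04), while 42.3% of the 3806 shortest were higher and 19.5% lower (median 0.13). Over all coding genes, however, the shNC replicates differed with coding length as much as the groups did, as given next.

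Across the 46 genes, the Spearman correlation of log2 fold change with coding length was -0.70, and Pearson's r with log2 length was -0.72, beside -0.15 and -0.11 over 12788 coding genes tested. These are correlations across genes of the same 4 libraries, and genes are not independent replicates. Spearman's rho was -0.67 to -0.68 in each of the 4 pairs of 1 shMETTL14 with 1 shNC library. Between replicates it was 0.17 for the shNC libraries and -0.19 for the shMETTL14 libraries, each smaller in size than between the groups. Over all coding genes tested, in contrast, it was -0.16 between the shNC replicates and -0.09 between the shMETTL14 replicates, so that the value of -0.15 between the groups was no larger than that between replicates. The correlation was strongest in the outer kinetochore (-0.87, 15 genes), and was -0.55 in the checkpoint (10 genes), -0.35 in the inner kinetochore (15 genes) and -0.20 in the chromosomal passenger complex with the shugoshins (6 genes). Without CENPF, CENPE and KNL1, Spearman's rho over the remaining genes was -0.64. Over all 46 genes, rho was -0.48 with whole transcript length, untranslated regions included, and -0.71 with the number of exons.

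**Figure D4:**
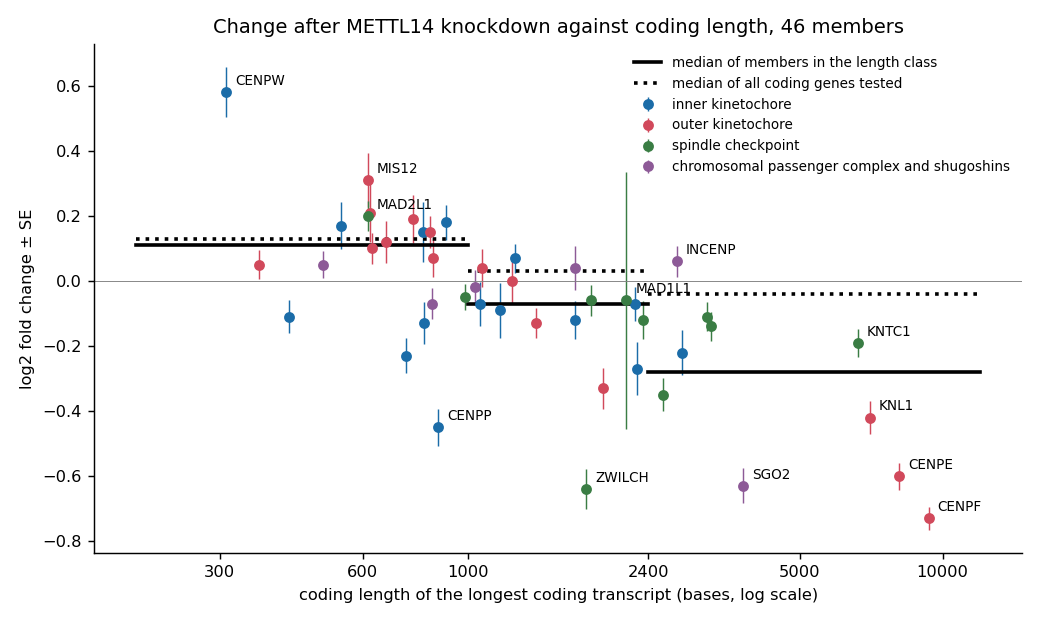
Log2 fold change with its standard error (vertical axis) against coding length of the longest coding transcript in bases (log axis) for the 46 genes, coloured by group of genes. Solid lines give the median of the 46 in each length class (0.11 under 1000 bases, -0.07 up to 2400 and -0.28 above) and dotted lines that of all coding genes tested (0.13, 0.03 and -0.04).

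Genes that act next to the kinetochore gave a mixed picture. As background, 52.8% of all genes tested were called, 27.4% higher and 25.5% lower. Of 10 other centromere genes and factors that load CENP-A, 4 were lower and 3 higher (70.0% called, median -0.03). OIP5, a factor needed for CENP-A loading, had 301 and 347 counts in shNC and 256 and 235 in shMETTL14 and was lower (log2 fold change -0.39, SE 0.112, adjusted p = 0.00533). RSF1, a chromatin remodelling factor, was lower (-0.53), whereas CENPX, a histone-fold protein, was higher (0.56). CENPS had only 4 to 20 counts per library, and its call (1.41, SE 0.547) rests on these.

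Of 20 genes of checkpoint silencing and the anaphase-promoting complex, 9 were higher and 5 lower (median 0.14). The share called was 70.0%, beside 52.8% of all genes tested. CDC20, the target of the checkpoint, had 3575 and 3530 counts in shNC and 3244 and 2984 in shMETTL14 (-0.18, SE 0.0447, adjusted p = 0.00165). TRIP13, the ATPase that releases MAD2, had 1258 and 1294 counts in shNC and 1565 and 1602 in shMETTL14 (0.32, SE 0.0547, adjusted p = 3.6e-05). MAD2L1 and TRIP13 were thus both higher in libraries in which CDC20 was lower. Of 14 cohesin and separase genes, 7 were lower and 2 higher (64.3% called, median -0.11). STAG2, a core cohesin subunit, was at -0.70 and the acetyltransferase ESCO2 at 0.49. Of 15 mitotic kinases, cyclins and their regulators, 8 were lower and 3 higher (73.3% called, median -0.16). Among them the mitotic kinases CDK1 and PLK1 changed by -0.18 (SE 0.0422, adjusted p = 0.00116) and -0.31 (SE 0.0457, adjusted p = 5.5e-06), and CCNB1, the cyclin partner of CDK1, by -0.16 (SE 0.0416, adjusted p = 0.00325).

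Of 15 cell cycle transcription factor genes that could be tested, 8 were higher and 2 lower (median 0.14). The share called was 66.7%, beside 52.8% of all genes tested. FOXM1 and MYBL2, which act on late cell cycle promoters, were higher by 0.11 (SE 0.042, adjusted p = 0.0309) and 0.54 (SE 0.0419, adjusted p = 3.8e-10), E2F1 by 0.75, and the pocket protein gene RBL2 was lower (-0.64). Of 16 S phase entry genes, 14 were higher and none lower (87.5% called, median 0.28). The largest increases were in CCNE1 and CCNE2, the E-type cyclins, at 1.46 and 1.20. Read counts of CCNE1 were 201 and 202 in shNC and 557 and 547 in shMETTL14. Beside this, 7 of the 46 kinetochore and checkpoint genes were higher and their median was -0.06. In the Spearman correlation with coding length, the neighbouring lists ran from -0.66 for the 10 centromere genes to -0.02 for the 15 mitotic kinases and cyclins.

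**Figure D5:**
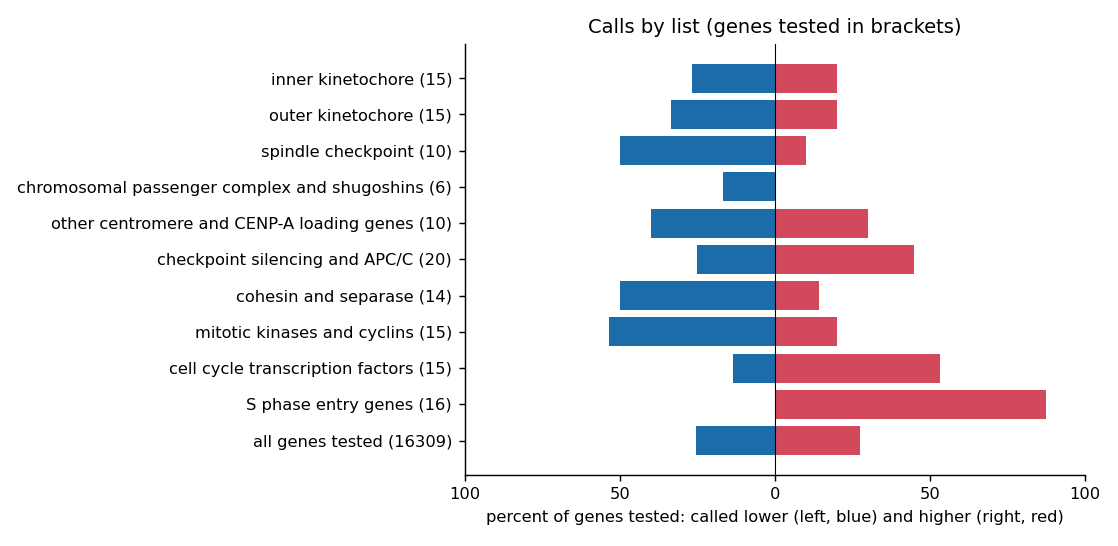
Percent of the genes tested in each list that were called lower (to the left, blue) and higher (to the right, red) after METTL14 knockdown, with the number tested in brackets. The S phase entry genes have 14 of 16 higher, whereas the 46 kinetochore and checkpoint genes have 7 higher and 15 lower. Of all genes tested, 27.4% are higher and 25.5% lower.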

How the data were processed

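The values are raw counts of reads for each Ensembl gene, which the authors deposited for the 4 libraries as 1 table without normalization. The submitters' processing notes name HISAT2 2.1.0, StringTie 1.3.6, HTSeq 0.13.5 and edgeR, and the build GRCh38 (hg38). The annotation release and strand setting are not given in the sources used here. Where exons of opposite strands overlap, counts may therefore be too low or belong to the neighbour. Of the 46 genes, 14 share exonic bases with another coding gene. CENPA, PMF1 and BUB1B share them with SLC35F6, PMF1-BGLAP and BUB1B-PAK6 on the same strand, so their counts are uncertain under any strand setting. Lines that name no gene (19.1% to 19.9% of counts) were left out.

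Counts were tested with edgeR 4.0.16 in R 4.3.3 (glmQLFit with legacy off, glmQLFTest, TMM, filterByExpr at its defaults, min.count 10 and min.total.count 15), with group as the only term. P-values were adjusted by Benjamini-Hochberg over 16309 genes, and a gene was called under 0.05. Standard errors are the log2 fold change divided by the root of F. CPM were taken on the TMM-scaled library size. DESeq2 1.42.0, other scalings and filters, and leaving out each library were alternatives. The method was tested on simulated data. Gene coordinates, lengths and exon overlaps are from GENCODE 29 on GRCh38, in which 58453 of the 60671 gene IDs were found, and promoters from RefSeq GRCh38.p14. Promoter stretches were chosen among genes with the CHR letters within 50 bases of the start as the 3 lowest called, the 3 uncalled nearest 0 and the 3 highest called. Any of the 46 genes could be named, and of neighbouring lists the 2 largest increases and decreases plus a few fixed genes, among them CDC20, OIP5, FOXM1, MYBL2, CDK1, CCNB1, PLK1 and TRIP13, and some items that the rule allowed are not reported here. Members and lists were chosen with earlier results of these data known. The replicates of a group differed by more than sampling noise (mean chi-square per gene 2.8 in shNC and 2.3 in shMETTL14).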

Additional observations from a re-analysis of the deposited data

How the results depend on the processing

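METTL14 was lower under each of the 12 alternatives (log2 fold change -1.33 to -1.21). Over the 12 alternatives and 46 genes, 465 calls and directions were as reported, 50 lost the call, 20 gained it and 17 changed sign, all of these in genes not called. The number of the 46 called was 12 in DESeq2, 4 when a change of 1.5-fold was also asked for, and 15 to 20 when a library was left out. Called higher were 2 in DESeq2, 4 by library size alone, 3 without the filter on low counts, 3 with upper quartile scaling and 4 to 5 without a library, the lowest being without shMETTL14 library 1 or shNC library 2. Called lower were 23 with upper quartile scaling and 11 to 15 without a library. Inner kinetochore calls numbered 3 in DESeq2, 4 without the filter and 3 to 6 without a library, and outer kinetochore calls 4 in DESeq2, 5 without the filter and 6 to 7 without a library. In the chromosomal passenger complex and shugoshins, 2 were called by library size alone and with upper quartile scaling. Checkpoint calls ran from 4 to 6 without a library. Of the neighbouring lists, the anaphase-promoting complex had 9 calls in DESeq2 and 8 without the filter, and the mitotic kinases 7 without the filter. The length correlation was -0.69 to -0.68 without a library, -0.48 with transcript length, -0.71 with exon number, -0.64 without CENPF, CENPE and KNL1, and -0.71 without MAD1L1. Signs changed in DSN1 (-0.00658 by library size, -0.03 with upper quartile scaling), SKA2 (-0.02), INCENP (-0.01) and BIRC5 (-0.02) with upper quartile scaling, SGO1 (-0.00275 by library size, -0.03 with upper quartile scaling, and -0.03 to 0.12 without a library), and SKA3 (0.00381 in DESeq2, 0.00819 without the filter, and -0.05 to 0.04 without a library). Without a library, BUB3 ran from -0.09 to 0.000481, MAD1L1 from -0.54 to 0.31 (0.00649 among them), and AURKB also changed sign (0.000851 and 0.0088). The cause was not tested. Relative to TMM, the median of all genes moved by -0.068 with upper quartile scaling and by -0.045 by library size alone.

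Deviations of libraries with the same replicate number correlated at 0.0127 over the genes. A value over all genes cannot exclude a pairing or batch that touches only some of them. With the number as a replicate block, 8993 genes and 23 of the 46 were called, and 1 of the 46 changed its call, PMF1 (adjusted p = 0.0415). Low counts limit MAD1L1 and CENPS, with 25 counts or fewer in each library. CENPS shares exonic bases with CENPS-CORT on the same strand. The cause of these low counts was not tested.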
